A study of Mus musculus with 3 samples.

Results

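A small set of visceral endoderm (VE) cells in bilayered embryo-like aggregates (BELAs) carried high levels of genes known from the anterior visceral endoderm (AVE). These AVE-like cells were chosen by their own transcriptomes. From the BELA library, barcodes with at least 4000 detected genes and at most 10% mitochondrial UMIs (unique molecular identifiers, each counting 1 captured mRNA molecule) were kept. A cell was assigned to the VE where its UMIs of Gata6, Sox17, Dab2 and Cubn together exceeded those of Pou5f1, Sox2, Nanog and Fgf4. It was then called AVE-like where the summed level of Sfrp1, Lhx1, Otx2, Gsc, Fgf8 and Gpc4, here the naming sum, reached 500 CPM (UMIs of a gene per 1000000 UMIs of the cell). The rule gave 78 cells, which were 14.4% (11.5 to 17.6%) of the 542 VE cells of BELAs, 5.53% (4.397 to 6.86%) of their 1410 cells and a small part of the 2692 cells of the series. The other 464 VE cells of the same library served as the reference.

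The series held 3 libraries, 1 per type of aggregate, made from mouse embryonic stem cells on the E14tg2a background that carry a doxycycline-inducible GATA4 transgene (iGATA). For BELAs, clone C6 received 0.5 µg/ml doxycycline for 8 h in 2i and LIF and then 16 h of N2B27 without it, and the floating aggregates were collected 3 days after seeding at 30000 cells per cm2, so that VE and epiblast (Epi) cells developed side by side from cells given the same doxycycline pulse. VE cysts had a second doxycycline treatment of 16 h, with FGF4 at 10 ng/ml and heparin at 1 µg/ml, both also present in the 3 days after seeding, while structures whose Epi-like core was clearly visible were to be avoided during picking. Epi cysts grew in matrigel from iGATA cells, with 1 day of 2i and LIF followed by 3 days of N2B27. VE in these aggregates was thus obtained through a transgene, in 1 clone for BELAs and VE cysts, and structures were picked by hand. Since each condition was 1 library, and cells of a library cannot stand in for replicates, the comparisons carry no test and no p-value. Intervals in parentheses are exact 95% intervals, Poisson for levels, conditional binomial for ratios and Clopper-Pearson for shares, and cover counting error only. The share that a count of 0 is said to allow is instead 3 cells over the number of cells, which lies under the exact upper limit.

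In the embryo, the AVE is a signalling centre of the VE that overlies the epiblast on the future head side. Nodal signals from the epiblast are known to induce it, and its cells secrete antagonists of Nodal, Wnt and BMP ligands that keep the adjacent epiblast from primitive streak fates. Transcription factors such as LHX1, OTX2, EOMES, HHEX and FOXA2 act in its formation, and the cells are known for their directed migration within the VE layer.

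The naming sum ran without a gap across the threshold. The AVE-like cells spanned 500.5 to 3450 CPM with a median of 1535 CPM, and the other VE cells 0 to 496 CPM with a median of 24.6 CPM. Just inside the threshold lay cells at 500.5, 513 and 514 CPM, and just outside cells at 496, 463 and 434 CPM. Sfrp1, a secreted Wnt antagonist, supplied 43.4% of the sum and was found in all 78 members, as was the heparan sulfate proteoglycan Gpc4, while Lhx1 was found in 77, Otx2 in 75, the growth factor gene Fgf8 in 72 and the homeobox gene Gsc in 43. All 6 genes were detected together in 40 members, 5 of them in 31 and 4 in 7. Without Sfrp1 58 cells still reached 500 CPM, and without Gsc all 78 did. These values chose the cells and are a description of the rule. In the VE cyst library 0 of 577 VE cells reached the threshold, which allows a share of up to 0.520% (exact upper limit 0.637%), and the highest sum there was 144 CPM. Epi cells of BELAs, which are known to express Otx2, had a median sum of 124 CPM and a highest one of 649 CPM.

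**Figure D1:**
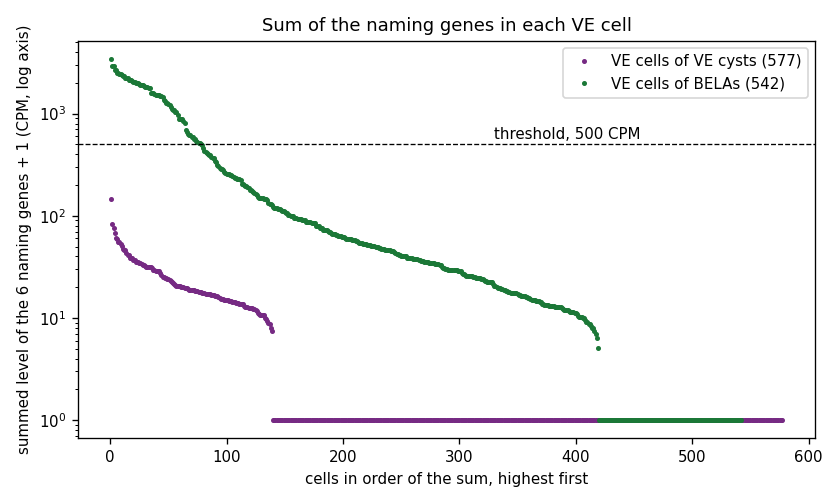
Summed level of Sfrp1, Lhx1, Otx2, Gsc, Fgf8 and Gpc4 in each VE cell, in CPM on a log axis with 1 added, with cells in order of the sum. Green points are the 542 VE cells of BELAs, purple points the 577 VE cells of VE cysts, and the dashed line the threshold of 500 CPM. The 78 AVE-like cells form the upper end of a continuous curve, and the highest VE cyst cell lies at 144 CPM.

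AVE-like cells held a median of 86641 UMIs (16275 to 246922), other VE cells of BELAs 90835.5 (18888 to 329998), VE cells of VE cysts 56914 and Epi cells of BELAs 78973. The median share of mitochondrial UMIs was 5.56% in AVE-like and 4.66% in other VE cells. Each level given from here on divides the UMIs of the gene by the total UMIs of the group, so that 1 UMI corresponded to 0.129 CPM in the AVE-like and 0.0214 CPM in the other VE cells. No barcode was shared between the AVE-like cells and either other library. The summed level of the 4 Epi markers was 20.3 CPM in AVE-like, 41.7 CPM in other VE and 578 CPM in Epi cells, and Pou5f1 stood at 17.96, 38.0 and 480.1 CPM in the same order. The 4 VE markers, which the rule also used, summed to 1909 CPM in AVE-like and 2997 CPM in other VE cells, with Sox17 at 49.2 against 136 CPM and Cubn at 395 against 877 CPM.

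Promoters are shown for Cer1, Afp and Sfrp5 as examples from the antagonists and secreted proteins below. These genes were higher in AVE-like than in other VE cells and had no part in the rule. The 250 bases before their annotated start sites follow, from RefSeq on GRCm38.p6 (the mm10 build), 5′ to 3′ on the strand of the gene. Capitals mark matches on either strand to TAATTA, a core bound by homeodomain proteins of the LHX1 type, and to CAGAC, a SMAD-binding element.
Cer1, chr4:82885152-82885401, minus strand: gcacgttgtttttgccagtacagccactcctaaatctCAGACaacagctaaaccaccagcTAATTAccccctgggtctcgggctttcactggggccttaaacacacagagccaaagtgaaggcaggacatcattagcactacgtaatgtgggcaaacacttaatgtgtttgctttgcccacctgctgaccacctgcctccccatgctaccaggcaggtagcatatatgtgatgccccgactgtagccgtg
Afp, chr5:90490464-90490713, plus strand: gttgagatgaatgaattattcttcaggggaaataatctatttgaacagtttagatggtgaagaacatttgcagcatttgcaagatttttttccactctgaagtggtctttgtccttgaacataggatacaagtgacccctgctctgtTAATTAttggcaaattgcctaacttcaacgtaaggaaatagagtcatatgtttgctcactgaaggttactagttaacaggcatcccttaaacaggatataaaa
Sfrp5, chr19:42202253-42202502, minus strand: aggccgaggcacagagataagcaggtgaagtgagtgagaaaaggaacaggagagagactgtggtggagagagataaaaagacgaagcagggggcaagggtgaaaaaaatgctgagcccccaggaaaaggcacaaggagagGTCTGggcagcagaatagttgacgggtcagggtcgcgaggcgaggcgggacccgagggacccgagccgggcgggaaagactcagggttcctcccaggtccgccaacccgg
Cer1 had a TAATTA from position -190 and Afp one from position -103, counted from the start site. In windows of 300 bases, 250 before and 50 after the start, TAATTA (a palindrome) was found for 2 of the 25 matched genes among the 30 with the highest ratio (Afp and Ptgds), for 0 of the 12 matched among the 20 with the lowest, and for 5.31% of 27025 promoters. CAGAC was found for 11 of 25, 3 of 12 and 49.7%. The FOXH1 element AATCCACA (0.873% of all promoters) and TAATCC, a core for OTX2 and GSC (7.16%), matched none of either set, and the TCF and LEF element CTTTGAA (5.27%) matched only Fgf3 among the lower genes. Among further genes higher in AVE-like cells, Eomes, Fzd5, Hhex, Hesx1, Foxa1, Nodal, Pkdcc and Chga matched none of these motifs. Cfc1, Id3, Shisa2, Tspan7 and Irs4 matched CAGAC only, so the promoters shown do not stand for all such genes. Marked motifs do not overlap in the sequences shown, and such matches describe these windows alone.

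Of 9222 genes with a mean level of at least 5 CPM in the AVE-like and other VE cells, 229 (2.48%) were at least 2-fold higher in AVE-like cells and 142 (1.54%) at least 2-fold lower, by log2 ratios with 5 CPM added to each level. Passing 2-fold refers to these ratios throughout, whereas a fold given with its value is the plain ratio of both levels. Outside the 14 genes of the rule these were 223 and 140, and 37 and 8 genes passed 4-fold. The median log2 ratio of all these genes was 0.0027. Because every gene of a cell moves with the choice of that cell, counts of listed genes are set beside these percentages as a description and nothing is read from them.

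**Figure D2:**
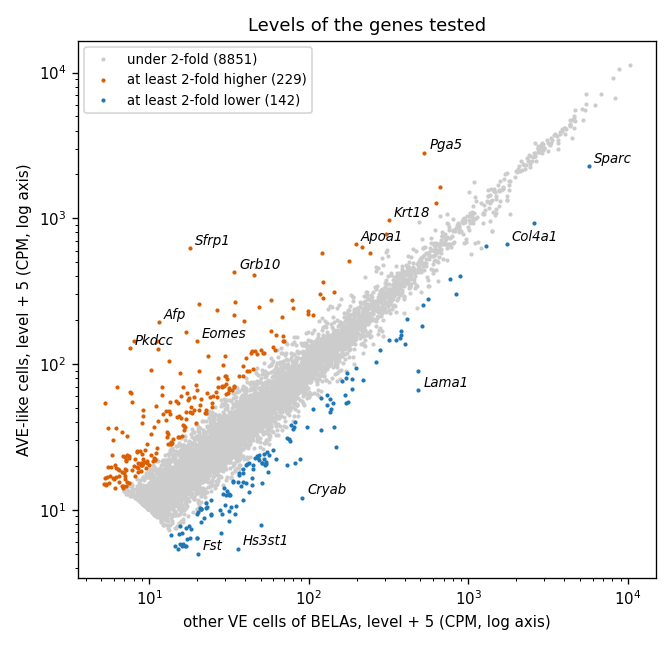
Levels of the 9222 genes in other VE cells (horizontal) and AVE-like cells (vertical), in CPM with 5 added, on log axes. Orange points are the 229 genes at least 2-fold higher and blue points the 142 at least 2-fold lower in AVE-like cells, with Sfrp1 being a naming gene.

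Among the secreted antagonists that define the AVE and did not enter the rule, Cer1, which binds Nodal and BMP ligands, had the largest plain ratio, although over few UMIs. It stood at 9.95 (7.85 to 12.4) CPM in AVE-like cells, from 77 UMIs, and at 0.0428 CPM in other VE cells, from 2 UMIs, a ratio of 233 (62.3 to 1955). VE cysts held 0.0282 CPM of it, and Epi cells 0.0971 CPM. Of the 27 VE cells of BELAs with a Cer1 UMI, 25 were AVE-like, whereas 53 members had none. After every cell was thinned to 40000 UMIs, Cer1 was found in 14 of 74 AVE-like cells (18.9%, unthinned 32.1%) and in 0 of 440 other VE, 0 of 473 VE cyst and 0 of 801 Epi cells, which allows shares of up to 0.682%, 0.634% and 0.375%.

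Lefty1, a Nodal antagonist that is itself a Nodal target, stood at 38.9 (34.6 to 43.5) CPM in AVE-like cells against 4.10 CPM in other VE and 2.11 CPM in VE cyst cells. Epi cells held more, 56.9 CPM, so that it set AVE-like cells apart within the VE only. Shisa2, which retains Wnt and FGF receptors inside the cell, was at 10.3 (8.19 to 12.9) against 0.641 CPM. Sfrp5, a secreted Wnt antagonist, was at 81.8 (75.5 to 88.4) against 10.5 CPM, a ratio of 7.79 (6.91 to 8.78), but at 84.9 (81.9 to 88.0) CPM in VE cyst cells. The AVE-like cells thus held Sfrp5 at 0.963 (0.883 to 1.05) times the level of VE cysts, and the low value was that of the other VE cells of BELAs. Values of VE cysts come from another library, medium and depth, which cannot be told apart. Frzb, a further Wnt antagonist, was at 3.88 CPM in AVE-like, 5.37 CPM in other VE and 33.8 CPM in VE cyst cells, and Lefty2 had no UMI in AVE-like cells.

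Dkk1, an antagonist of the Wnt co-receptors LRP5 and LRP6, behaved differently from cell to cell. Its pooled level was 113 (106 to 121) CPM in AVE-like cells, 42.2 (40.4 to 44.1) CPM in other VE cells and 26.6 CPM in VE cysts, a ratio of 2.67 (2.47 to 2.90) within BELAs. The 8 members with the most Dkk1 UMIs held 73.9% of them, with a highest cell at 1767 CPM. The other 70 members were at 34.0 (29.8 to 38.8) CPM, 0.806 times the level of other VE cells. A Dkk1 UMI was found in 61.5% of AVE-like and 72.2% of other VE cells, and in 50% and 54.8% after thinning, while Epi cells had 3.69% and 1.87%. The higher pooled level of Dkk1 thus lay in few cells, whereas Sfrp5 (28.0% of UMIs in 8 cells, median 76.8 against 0 CPM) was spread over most members.

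**Figure D3:**
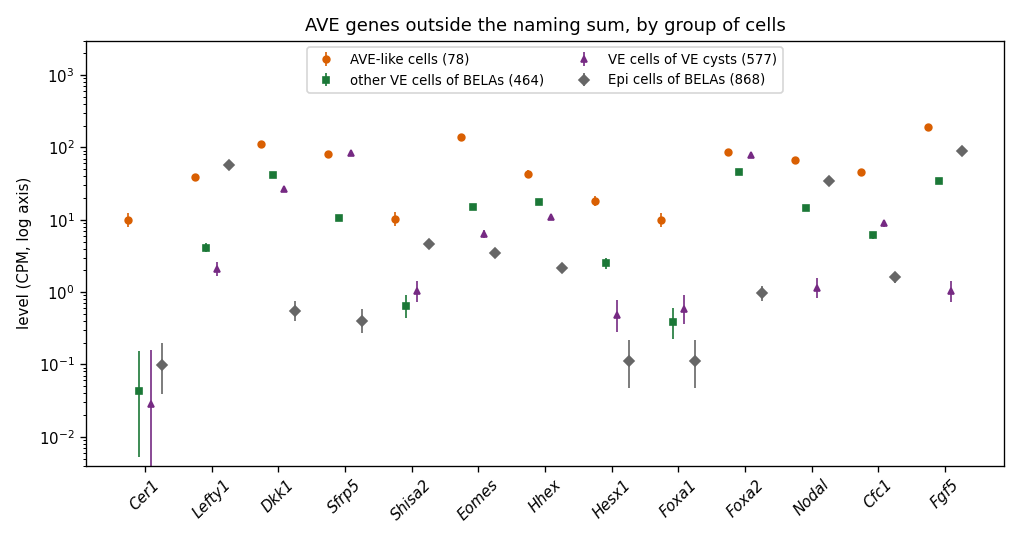
Levels of genes outside the naming sum in CPM on a log axis, pooled over the cells of a group, with exact 95% Poisson intervals. Orange circles are AVE-like cells, green squares other VE cells of BELAs, purple triangles VE cells of VE cysts and grey diamonds Epi cells of BELAs. Sfrp5 and Foxa2 lie close in AVE-like and VE cyst cells, and Lefty1 lies highest in Epi cells.

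Of 6 listed AVE transcription factors outside the rule 4 were at least 2-fold higher, which became 2 with a threshold of 300 CPM or after thinning and 1 with 20 CPM added. Eomes, a T-box factor required for AVE formation, was at 139 (131 to 148) CPM in AVE-like, 14.9 (13.8 to 16.0) CPM in other VE, 6.40 CPM in VE cyst and 3.43 CPM in Epi cells. All 78 members carried an Eomes UMI, against 55.8% of other VE cells (thinned 95.9% and 37.5%, with 8.74% of Epi cells as background). Single members ranged from 6.91 to 374 CPM with a median of 148 CPM, and other VE cells from 0 to 102 CPM with a median of 7.75 CPM, so that the ranges overlapped although the medians lay apart. Hhex, a homeobox gene of the early AVE, was at 43.4 (38.9 to 48.3) against 17.8 CPM, Hesx1, a homeobox repressor, at 18.2 (15.3 to 21.5) against 2.50 CPM, and the forkhead gene Foxa1 at 10.1 (7.96 to 12.6) against 0.385 CPM. Foxa2 was 1.88-fold (1.72 to 2.05) higher, at 86.6 against 46.0 CPM, with 78.9 CPM in VE cysts. Prdm1, a zinc-finger repressor, was 5.51-fold (3.27 to 9.24) higher, from 0.727 CPM in other VE cells, under the 5 CPM mean. The median log2 ratio of the list was 1.29, and that of the antagonists 1.44, where 4 of 7 were at least 2-fold higher and Cer1 was under the 5 CPM mean. Of the 13 genes of both lists, Frzb was lower in AVE-like than in other VE cells in plain level and Lefty2 had no UMI there, while the pooled level of the other 11 was higher, that of Dkk1 through 8 cells alone.

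Of 7 genes of Nodal ligands and their activation, Nodal and Cfc1 were at least 2-fold higher. Nodal was at 66.3 (60.7 to 72.3) CPM in AVE-like, 14.6 (13.6 to 15.8) CPM in other VE, 1.16 CPM in VE cyst and 34.4 CPM in Epi cells, so that its level per UMI in AVE-like cells passed that of the Epi. The co-receptor gene Cfc1 was at 46.1 (41.5 to 51.2) against 6.09 CPM, whereas Tdgf1, the co-receptor of the epiblast, was at 3.36 and 5.58 CPM and at 101.7 CPM in Epi cells. A Cfc1 UMI was found in 48 members, and 8 of them held 57.7% of its member UMIs. The other 70 members were at 21.9 (18.5 to 25.7) CPM of Cfc1. None of the 8 listed receptors and effectors passed 2-fold, with Smad2 at 83.6 against 65.0 CPM and Acvr2b at 19.2 against 14.8 CPM. Of 6 feedback genes only Lefty1 passed it, and Pmepa1 (114.6 and 105.8 CPM) and Smad7 (28.7 and 27.8 CPM), both induced by TGF-beta signals, were nearly level. Fst, which binds and blocks activin, had 0 UMIs in the 78 members and 15.1 CPM in other VE cells, so that its member level was at least 39.1-fold lower with 3 UMIs over the group as the floor. Fst was found in 19.8% of other VE and 51.8% of VE cyst cells and in 31.3% of Epi cells, and 0 of 78 allows 3.85%. Its absence was not particular to the members. The 36 other VE cells with naming sums from 200 to 500 CPM also held 0 (0 to 1.02) CPM of Fst. Cells with sums under 50 CPM held 20.7 (19.1 to 22.4) CPM.

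In the other signalling lists few genes passed 2-fold. In the BMP lists, 2 of 11 ligands and receptors, Bmp2 (55.3 against 10.9 CPM) and the effector Smad1 (58.0 against 26.0 CPM), and 1 of 8 targets, Id3, were at least 2-fold higher. Id3 stood at 56.1 (50.9 to 61.6) CPM in AVE-like, 7.10 CPM in other VE and 67.7 CPM in VE cyst cells, and 52.3% of its member UMIs were in 8 cells. Plain levels of other BMP targets moved both ways. From cells with naming sums under 50 CPM to those at 1000 CPM and over, Id1 rose from 30.5 to 77.8 CPM. Id2 fell from 72.8 to 26.1 CPM. Of 19 Wnt ligands and receptors only the receptor gene Fzd5 passed 2-fold, at 58.1 (52.9 to 63.8) against 2.67 CPM. Of 12 beta-catenin targets 2 reached the 5 CPM mean and none passed 2-fold. Axin2, a common readout of the pathway, was at 2.45 and 2.31 CPM, but Sp5 was at 9.17 (7.16 to 11.6) against 0.107 CPM, found in 23 members and 4 other VE cells. Of 9 FGF ligands and receptors, Fgf5 was higher, at 191 (181 to 201) against 34.1 CPM, and Fgf3 lower, at 1.94 against 23.3 CPM. None of the 11 ERK targets passed 2-fold with 5 CPM added, with Dusp6 at 7.36 and 6.95 CPM, while the plain levels of Spry4, at 23.0 and 10.7 CPM, were more than 2-fold apart. Plain levels of these targets moved both ways. Between cells with naming sums under 50 CPM and those at 1000 CPM and over, Il17rd rose from 8.95 to 27.8 CPM. Spry2 fell from 19.5 to 4.69 CPM between the same cells.

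Fgf5 and Otx2 are also transcripts of the epiblast, and the part of free Epi RNA in their levels was not tested. Fgf5 was above the Epi level of 90.1 CPM. Pou5f1, Sox2 and Nanog were at 17.96, 1.42 and 0.775 CPM in AVE-like cells against 480.1, 46.4 and 29.9 CPM in Epi cells. The rule used these 3 genes to separate VE from Epi cells, so their low levels follow from the choice of cells and describe it only. None of 10 further epiblast transcripts was 2-fold higher, and Dppa5a (639.6 against 1292 CPM) and Tdh (88.1 against 193 CPM) were 2-fold lower. Utf1, which encodes a chromatin protein of pluripotent cells, stood at 291 CPM in AVE-like, 239 CPM in other VE, 12.54 CPM in VE cyst and 615 CPM in Epi cells. In the list of embryonic VE genes Fgf5, Nodal and Fzd5 passed 2-fold and Cited1, Flrt3 and Ihh did not, with Ihh at 17.4 against 34.1 CPM.

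The matrix genes formed the broadest lower group, with 11 of 16 at least 2-fold lower, 1 higher and a median log2 ratio of -1.32. Sparc, a collagen-binding glycoprotein and the most abundant of them, was at 2269 (2235 to 2302) CPM in AVE-like, 5723 (5702 to 5745) CPM in other VE and 12104 CPM in VE cyst cells. Lama1, the laminin alpha chain of the embryonic basement membrane, was 7.89-fold (7.20 to 8.66) lower than in other VE cells, at 61.0 against 481 CPM, with 966 CPM in VE cysts. Single members held 0 to 249 CPM of it, with a median of 30.0 CPM, and other VE cells 0 to 4024 CPM, with a median of 413 CPM. Col4a1 was at 661 against 1731 CPM and Col4a2 at 299 against 828 CPM, the laminin chains Lamb1 and Lamc1 at 176 against 504 CPM and 146 against 368 CPM, the linker Nid1 at 15.4 against 39.7 CPM, and the proteoglycan Hspg2 at 41.5 against 131 CPM. The prolyl and lysyl hydroxylases P4ha1, P4ha2 and Plod2 were lower with them. Single members ranged from 323 to 4687 CPM of Sparc with a median of 1915 CPM, and other VE cells from 420 to 23552 CPM with a median of 5499 CPM, so that the ranges overlapped widely. Lama5, the laminin alpha chain of many epithelia, went the other way, at 64.7 (59.2 to 70.6) against 22.0 CPM. Nid2, Fn1, Serpinh1 and Plod1 stayed within 2-fold. The summed level of the list was 5001 CPM in AVE-like, 12266 CPM in other VE and 27125 CPM in VE cyst cells.

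Of 10 genes of the parietal endoderm, the relative of the VE that lays down its thick basement membrane, 3 were lower and none higher. Pdgfra was at 17.4 (14.6 to 20.6) against 82.6 CPM, Pth1r at 119.8 against 275 CPM and Plat at 13.95 against 33.8 CPM, while Srgn, Tfpi, Sox7, Vim and Snai1 stayed within 2-fold. Cryab, a small heat-shock protein, had the lowest log2 ratio with 5 CPM added, at 7.10 (5.35 to 9.25) against 85.6 CPM, 12.1-fold (9.24 to 16.0) lower. Hs3st1, a heparan sulfate sulfotransferase, had 3 UMIs in the members (0.388 CPM) against 30.8 CPM, 79.5-fold (27.2 to 386) lower. Further genes of the lowest 20 encode the matrix protease Htra1 (21.8 against 143 CPM), the malic enzyme Me1 (84.9 against 479 CPM), the ERBB ligands Nrg1 (32.2 against 139.6 CPM) and Nrg2 (6.72 against 33.6 CPM), the LIF receptor Lifr (4.78 against 26.7 CPM), the ERK phosphatase Dusp9 (15.2 against 67.7 CPM) and the matrix oxidase Loxl2 (48.7 against 167 CPM).

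Of 14 epithelial and junction genes 6 passed 2-fold upward and none downward, with a median log2 ratio of 0.71. The keratin genes Krt8 and Krt18 were at 773 against 299 CPM and 969 (947 to 991) against 312 CPM, Krt19 at 279.7 against 119 CPM and Krt7 at 64.2 (58.7 to 70.1) against 7.10 CPM. Cdh2, the N-cadherin gene, was at 59.3 (54.0 to 65.0) against 2.54 CPM, a ratio of 23.3 (19.0 to 28.8), and the E-cadherin gene Cdh1 was 2.13-fold higher beside it, at 139 against 65.3 CPM. The median member held 55.1 CPM of Cdh2 and the median other VE cell 0 CPM. Claudin and occludin genes stayed within 2-fold. Of 13 serum protein genes, a hallmark of VE, 6 were higher and none lower, with a median log2 ratio of 0.64. Afp, alpha-fetoprotein, was at 188 (179 to 198) against 6.48 CPM, with 37.8 CPM in VE cysts, and 8 members held 57.4% of its UMIs. Apoa1 was at 659.9 against 193 CPM, Rbp4 at 236 against 74.4 CPM, Trf at 74.9 against 21.9 CPM and Apob at 306 against 138 CPM. Ttr, which carries thyroid hormone and retinol-binding protein, was at 1269 (1244 to 1294) against 627 CPM, but at 1261 CPM in VE cysts, where Rbp4 was also high at 568 CPM.

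**Figure D4:**
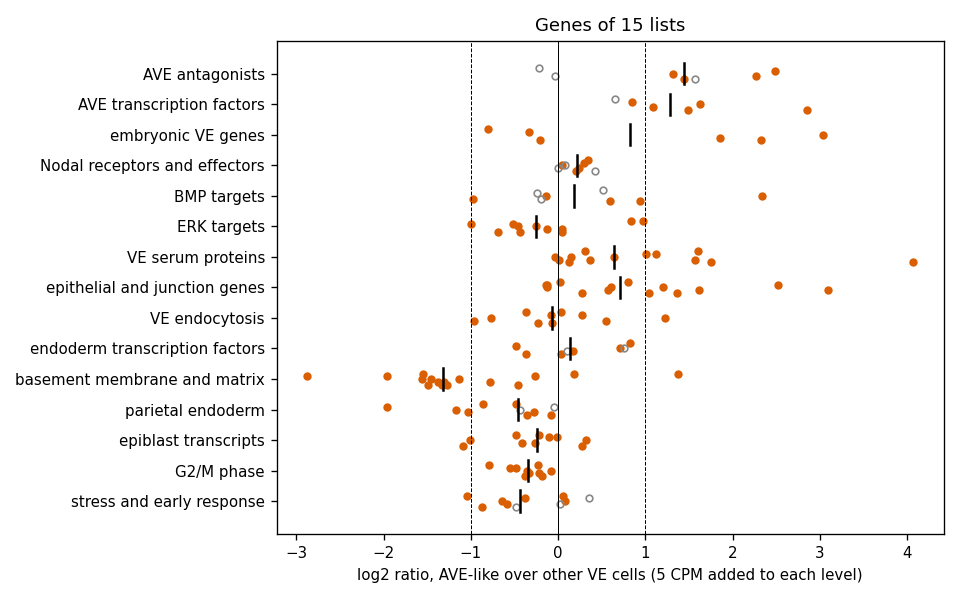
Log2 ratios of AVE-like over other VE cells, with 5 CPM added to each level, for the genes of selected lists. Orange points are genes with a mean level of at least 5 CPM, open grey points genes under it, black bars the list medians, and dashed lines 2-fold. The matrix genes lie mostly below -1, with Lama5 alone above 1, and those of the AVE antagonists and AVE transcription factors lie mostly above 1.

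Beyond the lists, the highest log2 ratio outside the rule belonged to Pkdcc, a secreted kinase of matrix proteins, at 123 (116 to 131) CPM in AVE-like, 2.57 CPM in other VE, 3.97 CPM in VE cyst and 6.10 CPM in Epi cells, found in 92.3% of members and 16.6% of other VE cells (thinned 85.1% and 8.64%, with 17.4% of Epi cells). Grb10, an adaptor that binds the insulin and IGF receptors, was at 424 (409 to 438) against 29.0 CPM, the insulin receptor substrate gene Irs4 at 159.5 (151 to 169) against 12.0 CPM with 0.141 CPM in VE cysts, and the IGF-binding protein gene Igfbp2 at 260.3 against 29.7 CPM. Grb10 and Mest (121 against 6.39 CPM) are both imprinted genes, expressed from 1 parental allele. Chga, a protein of secretory granules, was at 64.1 (58.6 to 70.0) against 1.28 CPM, the KIT ligand gene Kitl at 31.4 against 1.22 CPM, the FGF carrier Fgfbp1 at 25.1 against 0.898 CPM and the tetraspanin gene Tspan7 at 86.6 against 5.26 CPM. Pga5, a pepsinogen gene, was the most abundant of the 30 highest, at 2811 (2773 to 2848) against 524 CPM, and Ptgds, a prostaglandin D synthase gene, was at 575 against 116 CPM. Igfbp2, Sox4, Cd24a and Crip1 were also high in Epi cells, at 265, 155, 155 and 141 CPM.

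The remaining lists held few genes past 2-fold. Amot, which the VE is known to need for its migration, was the only one of 13 migration and polarity genes, at 629.5 (612 to 647) against 211 CPM, and Rac1 and Nckap1, which act in AVE migration, were at 249 and 304 CPM and at 76.0 and 79.8 CPM in AVE-like and other VE cells. Of 13 Eph and ephrin genes, Epha4 (48.7 against 10.1 CPM) and Efna5 (29.3 against 1.71 CPM) were higher and Ephb3 (7.62 CPM, 3.54-fold) lower. Gpc6 was lower among 7 glypicans and syndecans, and Fcgrt higher among 10 endocytosis genes, where Amn (1064 and 1253 CPM) and Lrp2 (239 and 473 CPM) stayed within 2-fold. None of 8 endoderm transcription factors passed it. The 10 G2/M genes had a median log2 ratio of -0.35 and the 8 S phase genes -0.13, with none past 2-fold, and of 9 cyclins and CDK inhibitors Ccnd2 and Ccnd3 were lower.

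Markers of other cell types mostly stayed under the 5 CPM mean. Of 10 genes of definitive endoderm and primitive streak, T and Shh had no UMI in AVE-like cells, and Mixl1 was at 5.04 (3.58 to 6.89) against 0.171 CPM, found in 18 members and 8 other VE cells. Only Trh reached the 5 CPM mean (17.4 against 8.12 CPM, and 93.8 CPM in Epi cells), and with 5 CPM added it stayed within 2-fold. Gata3, on this list and that of the trophoblast, was at 7.62 against 1.07 CPM, under that mean. Of 8 trophoblast genes only Krt7 passed 2-fold, which is also an epithelial keratin, while Elf5, Hand1 and Ascl2, all under that mean, were at 0.646, 0.129 and 5.81 CPM in AVE-like cells. Between cells with naming sums under 50 CPM and those at 1000 CPM and over, Ascl2 rose from 0.550 to 8.57 CPM. Elf5 went from 0.0323 to 1.02 CPM and Hand1 from 0.129 to 0.204 CPM, on few UMIs. Plac1 of this list went the other way, from 31.1 to 14.3 CPM. None of 7 blood and endothelium genes passed it, and none of 6 fibroblast genes reached the mean. Of 10 stress genes Atf3 was lower, at 12.8 against 31.6 CPM, of 13 glycolysis genes none passed, and of 10 cholesterol synthesis genes Insig1 was lower, at 163 against 371 CPM.

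Levels across the range of the naming sum showed which genes were already higher in cells outside the threshold. The 542 cells fell into bins of 0 to 50 CPM (319 cells), 50 to 100 (69), 100 to 200 (40), 200 to 500 (36), 500 to 1000 (21) and 1000 CPM and over (57), with median depths between 79718 and 100969 UMIs. Fgf5 was at 14.5 (13.2 to 15.9), 51.6, 77.0, 112, 136 and 223 (209.6 to 236) CPM from the lowest to the highest bin. Nodal was at 8.18, 19.2, 22.6, 50.5, 56.7 and 71.8 CPM. Irs4 followed the same order, at 3.14, 15.4, 25.1, 64.7, 82.7 and 204 CPM, as did Grb10 and Eomes. Lama1 took the opposite course, at 598, 327, 236, 110.2, 113 and 31.0 (26.3 to 36.4) CPM. Apoa1 was highest in the 36 cells just under the threshold, at 1160.5 CPM against 62.5 CPM in the lowest and 637 CPM in the highest bin, and Ttr was highest there as well, at 1588 CPM. Trf and Apob also peaked there, at 134 and 450 CPM against 85.1 and 314 CPM in the highest bin. Afp and Rbp4 were instead highest in the last bin, at 228 and 288 CPM.

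Other genes were highest in the 57 cells at 1000 CPM and over. Cer1 had no UMI in the 3 bins from 50 to 500 CPM and was at 2.82 (1.22 to 5.55) CPM from 500 to 1000 CPM and 14.1 (11.0 to 17.8) CPM above. Gsc was at 5.98 and 73.3 CPM in these last bins, but as a naming gene it is part of the sum that defines them. Shisa2 was at 1.06 and 15.7 CPM, Fzd5 at 15.1 and 83.1 CPM, Id3 at 15.5 and 79.6 CPM and Bmp2 at 23.2 and 73.9 CPM. Dkk1 was lower from bin to bin, at 47.1, 36.2, 33.1, 24.7 (19.8 to 30.4) and 20.1 (15.2 to 26.0) CPM, and then stood at 167 (155 to 179) CPM in the last. Over all members, the 8 richest cells of each gene held 73.9% of the Dkk1, 67.5% of the Cer1, 58.8% of the Shisa2 and 52.3% of the Id3 UMIs. Pooled levels of these genes above the threshold thus rest largely on few cells. Between 50 and 1000 CPM the Dkk1 intervals of neighbouring bins overlapped, so that single steps there are not resolved. The 21 cells between 500 and 1000 CPM thus had the lowest Dkk1 value of all bins, though within counting error of the bin below. Their Eomes level, at 70.7 CPM, lay between the 26.1 CPM of the bin below and the 179 CPM of the bin above.

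**Figure D5:**
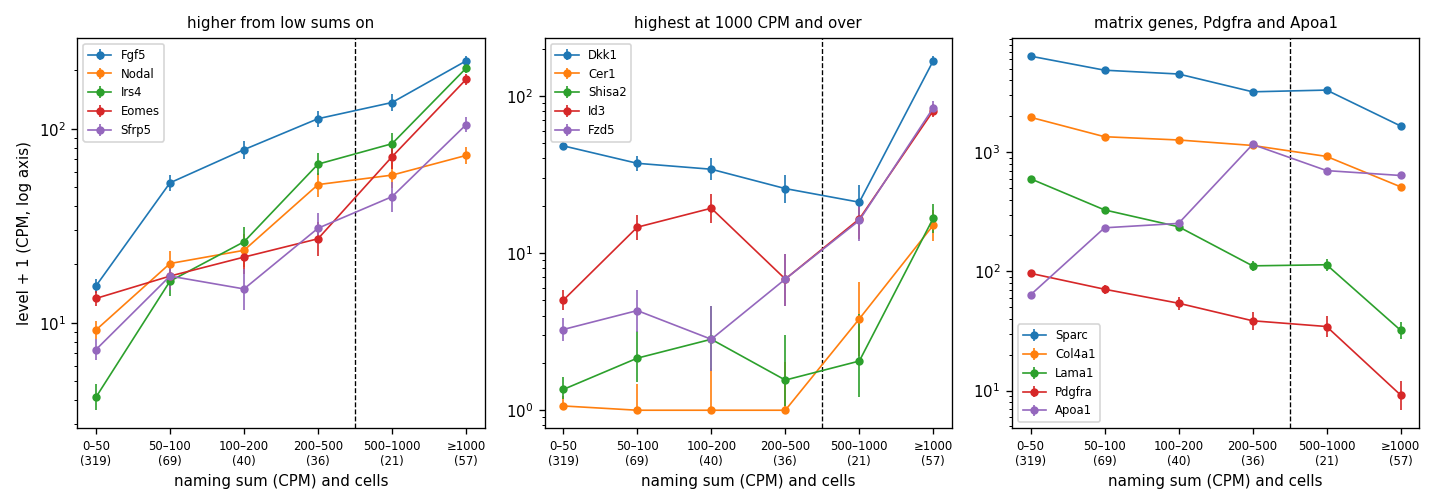
Levels in CPM with 1 added, on log axes, in 6 bins of the naming sum with the number of cells in parentheses, for genes higher from low sums on (left), genes highest at 1000 CPM and over (middle) and matrix genes with Pdgfra and Apoa1 (right). Bars are exact 95% Poisson intervals and the dashed line is the threshold of 500 CPM. Nodal lies at 50.5 CPM just under the threshold and at 56.7 CPM just above it, and Dkk1 stands at 20.1 CPM just above it and at 167 CPM in the last bin. Over all AVE-like cells, 8 cells held 73.9% of the Dkk1 UMIs.

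Lhx1 alone marked a wider set of cells. A Lhx1 UMI was found in 215 (46.3%, 41.7 to 51.0%) of the other VE cells, which had a median depth of 104820 UMIs. In these cells Fgf5 was at 53.7 CPM, Irs4 at 20.9 CPM and Eomes at 19.7 CPM, between the other VE cells as a whole and the AVE-like cells, while Cer1 was at 0.0408, Shisa2 at 0.530 and Dkk1 at 42.8 CPM, at or near the level of all other VE cells. Otx2, a naming gene, was found in 149 VE cells, 75 of them AVE-like, which follows in part from the rule. Foxa1, outside the rule, was found in 54 VE cells, 37 of them AVE-like.

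Members also varied among themselves. The 25 members with a Cer1 UMI had a median depth of 100969 UMIs and a median naming sum of 2099 CPM, against 80134 UMIs and 1455 CPM in the 53 without, so that depth moved with this split and its part was not tested. Cer1-positive members held more Shisa2 (22.7 against 3.60 CPM, 6.30-fold, 3.68 to 11.3), Dkk1 (189 against 71.3 CPM, 2.65-fold, 2.31 to 3.04), Chga (2.57-fold), Fzd5 (2.09-fold) and Krt7 (2.05-fold). Gsc was 2.55-fold higher, but it is part of the naming sum, which was also higher in these members. Lefty1 (0.994-fold, 0.777 to 1.27), Fgf5 (1.02-fold, 0.916 to 1.14) and Foxa2 (0.968-fold, 0.822 to 1.14) were near 1, and Foxa1 was lower (6.58 against 12.0 CPM, 0.548-fold, 0.305 to 0.942). Several of these genes were held by few cells. The top 8 cells of each gene held 73.9% of the Dkk1, 67.5% of the Cer1, 63.5% of the Lefty1 and 58.8% of the Shisa2 UMIs. The top 8 cells of Cer1 shared 1 cell with those of Dkk1, 1 with those of Shisa2 and 0 with those of Gsc. Those of Dkk1 shared 0 with Shisa2 and 2 with Gsc, whereas Shisa2 and Gsc shared 5.

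Across 74 members thinned to 40000 UMIs, which share a library and a depth, Spearman correlations of the counts put Sfrp1, a naming gene, with Igfbp2 (0.62), Cd24a (0.60) and Pkdcc (0.58), and against Col4a1 (-0.53) and Sparc (-0.50). Ttr went with Apoa1 (0.61) and Sparc with Col4a1 (0.54). These are descriptions over cells of 1 library in which many counts are low.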

How the data were processed

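The authors aligned the reads and counted UMIs with Cell Ranger 4.0.0 on mm10, per the submitters' processing notes, with the GENCODE vM23/Ensembl 98 annotation named in the study's methods, and the deposited matrices hold raw counts for 32285 genes and 2220 (BELAs), 1076 (Epi cysts) and 881 (VE cysts) barcodes. Members and gene lists were chosen with earlier results of these data known. UMIs were pooled per group and compared as log2 ratios with 5 CPM added, for genes with a mean of at least 5 CPM, in Python 3.11.15 with numpy 2.4.6, scipy 1.17.1 and pandas 2.3.3. The script was tested on simulated counts. Named genes are those of the 35 lists and the 30 highest and 20 lowest ratios, without rule genes, mitochondrial genes and unnamed gene models. Other genes and settings shown for their pattern (the 8 richest cells, cells with or without Cer1) were chosen after their values were seen. Scrublet (scanpy 1.11.5) called 16 of 2220 BELA barcodes as doublets, 1 of them AVE-like, and none was left out except as an alternative. Fractions of cells with a UMI were also computed after thinning to 40000 UMIs, which left out 4 AVE-like, 24 other VE, 104 VE cyst and 67 Epi cells. Promoters came from RefSeq.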

Additional observations from a re-analysis of the deposited data

How the results depend on the processing

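The count of AVE-like cells lay between 57 (threshold of 1000 CPM) and 93 (300 CPM), and it was 65 without Otx2 and Fgf8 in the sum, 74 with the VE markers at least 10 times the Epi markers, 77 without doublets and 89 with a looser filter on genes and mitochondrial UMIs. With each naming gene scaled to its mean, 76 of the 78 cells were shared, and after thinning 73 cells passed, 70 of them shared. The counts of genes depended most on the CPM added and on the filter. With 1 CPM added 348 genes were at least 2-fold higher and 217 lower, with 20 CPM added 94 and 45, and with a mean level of at least 20 CPM 135 and 90. Under the other alternatives they lay between 205 and 315 and between 132 and 195. Of 91 named genes past 2-fold, all kept their sign under each of 12 alternatives, and 70 stayed past 2-fold with 20 CPM added, against 86 or more under the rest. The AVE transcription factors at least 2-fold higher were 2 in place of 4 with a threshold of 300 CPM or after thinning, and 1 with 20 CPM added. A reference limited to other VE cells under 100 CPM of the naming sum was added after seeing the data, and gave 268 and 171 genes. No paired analysis was possible because each condition has 1 library, so that differences between libraries have no replicate check, and genes under about 5 CPM rest on few UMIs in 78 cells.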
